A study of Mus musculus with 20 samples.

Results

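The 2 arms of miR-582, miR-582-3p and miR-582-5p, were followed in 20 small RNA libraries of mouse bone marrow cells. They are 2 of 1218 miRNAs detected and 2 of the 374 tested. They were selected on the difference between miR-155 knockout and wild type, which had opposite signs in the 2 cell types. That difference is therefore described below and not tested. Members are all reads of 18 to 26 nt that match an arm of the annotated mouse miR-582 hairpin without mismatch.

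Each library is the only one of its condition, so no condition has a replicate. Macrophages were grown from flushed bone marrow with M-CSF and dendritic cells with GM-CSF, both as hybridoma supernatant. The knockout mice were mir-155-/- (B6.Cg-Mir155tm1.1Rsky/J), which lack miR-155 in all their cells, and the wild-type mice were C57BL/6, all aged 8 to 12 weeks. Cells of each genotype and cell type (together called a culture here) were left without stimulus or given LPS, oxLDL, eLDL or LDL. Dendritic cells received 200 ng/ml LPS overnight at day 8 to 9. Doses and times of the lipoproteins, and those of LPS in macrophages, are not stated in the labels. Whether the 5 libraries of a culture stem from separate mice or dishes is not stated either, so p-values measure only the spread between these libraries, which may be technical.

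A miRNA is cut from a hairpin by Drosha in the nucleus and by Dicer in the cytoplasm. The 5p arm takes its 5′ end from the Drosha cut and the 3p arm takes its 5′ end from the Dicer cut. The bases after the 5′ end form the seed, which pairs with target mRNAs, so a 5′ end that shifts by a base changes the seed. The Mir582 hairpin lies in an intron of Pde4d, which encodes a cAMP-degrading phosphodiesterase. In human monocytes miR-582-5p has been reported to target FOXO1, and in human lung cancer cells miR-582-3p has been reported to target inhibitors of Wnt signalling. miR-155 is induced by LPS in macrophages and dendritic cells.

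The sequences are shown because the arms are unequal in abundance and because most reads do not start where the RefSeq entries do. In the hairpin, capitals mark the 2 RefSeq mature miRNAs. In the other sequences, capitals mark the seed, bases 2 to 8. Sequences of the hairpin and mature miRNAs are from RefSeq (GRCm38.p6), and the tags are exact matches to GENCODE M21 (GRCm38).
Mir582 hairpin: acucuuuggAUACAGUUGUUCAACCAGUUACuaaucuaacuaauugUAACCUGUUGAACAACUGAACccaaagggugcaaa
miR-582-3p, RefSeq: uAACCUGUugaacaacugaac
miR-582-3p, most abundant tag: aACCUGUUgaacaacugaaccc
miR-582-3p, next most abundant tag: uAACCUGUugaacaacugaacc
miR-582-5p, RefSeq: aUACAGUUguucaaccaguuac
miR-582-5p, most abundant tag: uACAGUUGuucaaccaguuacu

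The hairpin is on the plus strand at chr13:109324744-109324824 and is 81 nt long. Pde4d runs over chr13:108449948-109953461 on the same strand. Of 20 annotated Pde4d transcripts, 6 span the hairpin, in Pde4d-208 within intron 1 (chr13:109117081-109740386). The most abundant miR-582-3p tag lies at chr13:109324791-109324812 and the most abundant miR-582-5p tag at chr13:109324754-109324775, both 1 nt downstream of the RefSeq start. Positions within the hairpin are counted from 1 at its 5′ end. By that count the RefSeq start of miR-582-3p is 47 and the most abundant start is 48.

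Over all libraries miR-582-3p had 33587 reads and miR-582-5p had 814. Reads starting at 48 made up 62.7% of miR-582-3p and carry the seed ACCUGUU, while those starting at 47 made up 35.0% and carry AACCUGU. For miR-582-5p, 53.7% of reads started at 11 and carry ACAGUUG, and 41.2% started at 10 and carry UACAGUU. No other mature mouse miRNA in the RefSeq table had any of these 4 seeds. The most abundant tag of each arm matched no other annotated gene on either strand.

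Libraries held 10254997 to 22796027 reads, of which 42.4% to 63.4% matched miRNAs. Levels are miRNA reads scaled to a sum of 1000000 per library (CPM). A count of 0 allows up to 3 reads, or 0.255 to 0.592 CPM, and intervals on counts are exact at 95% and cover counting error only. The targeted miR-155-5p stood at 3.93 to 5.89 CPM in knockout macrophages, against 5348 to 39828 CPM in wild-type macrophages. It stood at 0.311 to 0.790 CPM in knockout dendritic cells, against 129 to 9589 CPM in wild-type dendritic cells. The haematopoietic markers miR-223-3p, miR-142a-3p and miR-142a-5p were abundant in every library, with no value under 288 CPM. The liver marker miR-122-5p and the erythroid markers miR-451a and miR-144-3p stayed at or below 6.23 CPM, and muscle and neural markers were not detected.

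All 10 macrophage libraries stood apart in read quality. Between 6.75% and 7.08% of their reads had an unread base (N) at read position 20, against at most 8.3e-06% in dendritic cells. Of miR-582-3p reads of 20 nt or longer, 13.9% to 16.9% in macrophages and 0.897% to 3.09% in dendritic cells differed from the hairpin at that base alone. Exact matching leaves these reads out, so results that compare cell types are also given with any base accepted there. That repairs this base only. The split follows cell type in all 20 libraries, so technical differences that go with it cannot be told apart from cell type.

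miR-582-3p was most abundant in wild-type macrophages and least abundant in wild-type dendritic cells. In the order none, LPS, oxLDL, eLDL and LDL, knockout macrophages had 219.5, 198, 225, 213 and 198 CPM of miR-582-3p. Wild-type macrophages had 334, 431, 542, 436 and 425 CPM in that order. Every knockout library lay below every wild-type library in macrophages, and the unstimulated wild-type library was the lowest of its culture. Knockout dendritic cells had 233, 61.8, 166, 189 and 155 CPM, and wild-type dendritic cells had 32.0, 10.7, 26.3, 28.0 and 28.8 CPM. Every knockout library lay above every wild-type library in dendritic cells, and LPS gave the lowest value in both genotypes. By culture mean, wild-type macrophages (434 ± 74.0 CPM, SD over 5 libraries) came first, followed by knockout macrophages (211 ± 12.2 CPM), knockout dendritic cells (161 ± 62.8 CPM) and wild-type dendritic cells (25.2 ± 8.37 CPM). The ranges of the 2 knockout cultures overlapped, and no other neighbours in this order did. With any base accepted at read position 20 the order was the same, with 456 ± 76.7 CPM in wild-type macrophages, 221 ± 13.6 CPM in knockout macrophages, 163 ± 64.0 CPM in knockout dendritic cells and 25.5 ± 8.39 CPM in wild-type dendritic cells.

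**Figure D1:**
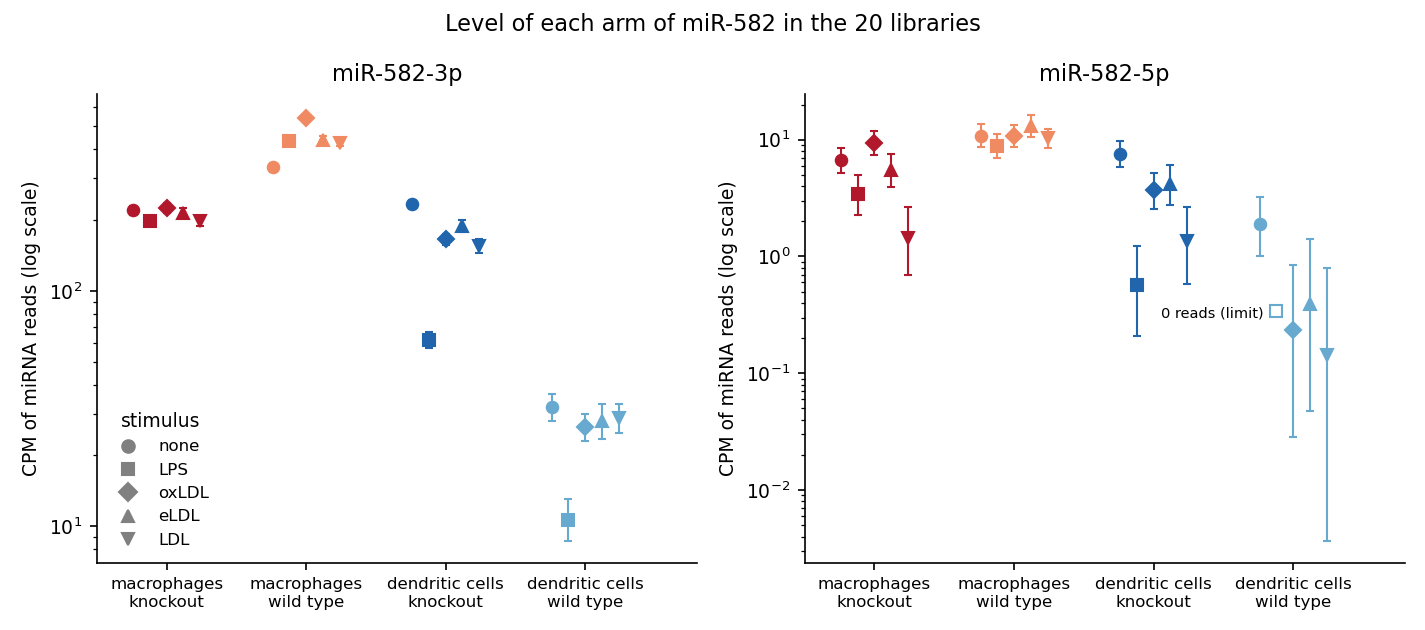
Level of miR-582-3p (left) and miR-582-5p (right) in each of the 20 libraries, in CPM of miRNA reads on a log axis, with 1 point per library, the marker giving the stimulus and bars the exact 95% Poisson interval. The open marker is the limit that a count of 0 allows. For miR-582-3p, knockout macrophages lay at 198 to 225 CPM against 334 to 542 CPM in wild type, and knockout dendritic cells at 61.8 to 233 CPM against 10.7 to 32.0 CPM in wild type.

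miR-582-5p was the minor arm. In the same stimulus order it had 63, 27, 72, 40 and 10 reads in knockout macrophages and 78, 71, 92, 85 and 121 reads in wild-type macrophages. These are 1.45 to 9.42 CPM and 8.90 to 13.2 CPM. It had 63, 6, 33, 27 and 8 reads in knockout dendritic cells (0.567 to 7.55 CPM) and 13, 0, 2, 2 and 1 reads in wild-type dendritic cells (at most 1.88 CPM). The genotype groups overlapped in both cell types, through the oxLDL library of knockout macrophages and the unstimulated library of wild-type dendritic cells. miR-582-5p passed the filter on low values through 8 macrophage libraries and 1 dendritic cell library, whereas miR-582-3p passed in all 20.

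The values that chose the arms are the ratios of knockout to wild type in matched pairs of libraries. In macrophages the miR-582-3p ratios were 0.658, 0.460, 0.414, 0.489 and 0.466 in stimulus order, a mean log2 ratio of -1.03 ± 0.25 (SD, 5 pairs). In dendritic cells they were 7.26, 5.79, 6.28, 6.74 and 5.37, a mean log2 ratio of 2.64 ± 0.17 (SD, 5 pairs). For miR-582-5p the mean log2 ratio was -1.27 ± 0.99 in macrophages (SD, 5 pairs), from 212 knockout and 447 wild-type reads. Without the LDL pair, where knockout macrophages had 10 reads, it was -0.88. In dendritic cells it was 3.16 ± 0.84 over the 4 pairs with reads on both sides. The summed reads there, 137 in knockout and 18 in wild type, gave a ratio of 6.88 (4.2 to 12.0). Of the 18 wild-type reads, 13 were in the unstimulated library, and without that pair the sums of 74 and 5 reads gave a ratio of 13.7 (5.61 to 43.4). Each arm was thus higher in knockout in every dendritic cell pair and lower in knockout in all 5 macrophage pairs, although the LPS pair of dendritic cells held only 6 and 0 reads of miR-582-5p.

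Beside these ratios stand the values over all 374 tested miRNAs. Knockout libraries lay below every wild-type library for 22 miRNAs in macrophages (5.88%) and above every wild-type library for 10 in dendritic cells (2.67%). Only miR-582-3p did both (0.267%), and miR-34c-5p alone had the reverse pattern. On the log2(CPM + 1) scale, which understates the change of low miRNAs, the mean difference in dendritic cells was 2.59 for miR-582-3p and 1.42 for miR-582-5p. These were the 2 highest of the 374, and the next, miR-139-5p, stood at 0.90. In macrophages the differences of -1.02 and -1.06 were the 21st and 19th lowest. As the arms were chosen on this contrast, nothing is read from these places.

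**Figure D2:**
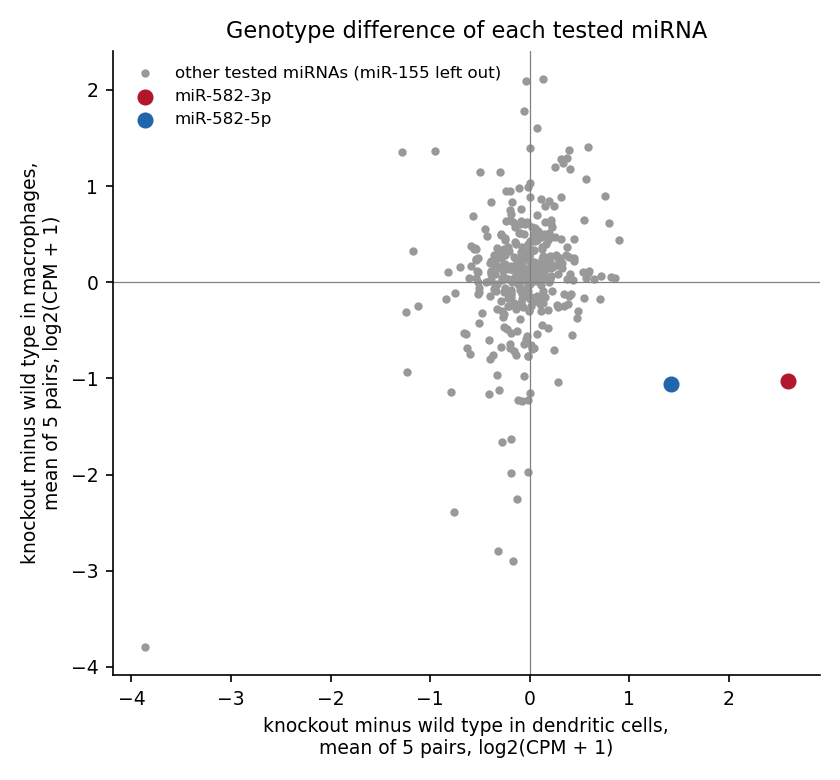
Mean difference between knockout and wild type over 5 matched pairs, log2(CPM + 1), in dendritic cells (horizontal) and macrophages (vertical), with 1 point per tested miRNA and both miR-155 arms left out. miR-582-3p (2.59, -1.02) and miR-582-5p (1.42, -1.06) lie alone at the lower right, and the point at the lower left is the stromal marker miR-143-3p (-3.86, -3.79).

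Markers of other cell types moved with genotype too. The stromal list (miR-143-3p, miR-145a-5p and miR-199a-3p) summed to 0.849 to 26.7 CPM in knockout and 26.1 to 279 CPM in wild-type macrophages. In dendritic cells it summed to 21.5 to 83.5 CPM in knockout and 68.6 to 278 CPM in wild type. Its member miR-143-3p averaged 7.71 CPM in knockout and 110.8 CPM in wild-type macrophages, and 3.87 CPM in knockout and 75.2 CPM in wild-type dendritic cells. Its member miR-199a-3p averaged 35.8 CPM in knockout and 50.3 CPM in wild-type dendritic cells. The epithelial list (miR-200a-3p, miR-200b-3p, miR-200c-3p and miR-141-3p) summed to 174 to 218 CPM in knockout and 189 to 240 CPM in wild-type macrophages, and to 131 to 153 CPM in knockout and 201 to 232 CPM in wild-type dendritic cells. Its members differed in direction. miR-200b-3p averaged 36.9 CPM in knockout and 71.6 CPM in wild-type macrophages, and 50.8 CPM in knockout and 118.6 CPM in wild-type dendritic cells, with no overlap in either. miR-200a-3p was lower in knockout too, without overlap in macrophages. miR-141-3p averaged 58.9 CPM in knockout and 43.4 CPM in wild-type macrophages, without overlap, and miR-200c-3p averaged 73.4 CPM in knockout and 51.0 CPM in wild-type macrophages. In dendritic cells miR-141-3p averaged 23.7 CPM in knockout and 17.9 CPM in wild type, and miR-200c-3p 16.8 CPM in knockout and 14.5 CPM in wild type. The lymphoid marker miR-150-5p stood at 97.6 to 168 CPM in knockout and 63.5 to 161 CPM in wild-type macrophages, and at 6.23 to 16.8 CPM in knockout and 8.29 to 24.2 CPM in wild-type dendritic cells. The endothelial marker miR-126a-3p stayed at or below 9.28 CPM. Over all 374 tested miRNAs, 6.68% were higher and 5.88% lower in knockout macrophages without overlap. In dendritic cells 2.67% were higher and 2.14% lower in knockout without overlap. miR-143-3p was lower in knockout in both cell types, without overlap. The part of these cell types in the miR-582 ratios was not tested, and in bulk RNA more cells of a type cannot be told apart from more miRNA per cell.

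A further description concerns the 36 miRNAs, miR-582 and miR-155 aside, that were at least 3 log2 units higher in macrophages than in dendritic cells, a list formed after the values were seen. In dendritic cells their median difference between knockout and wild type was -0.07 on the log2(CPM + 1) scale, against -0.06 over all tested miRNAs. Of the 36, 2 lay above every wild-type library, beside 10 of all 374 tested miRNAs (2.67%). The largest difference among the 36 was 0.86, for miR-146b-5p. Their summed level was 12312 to 21231 CPM in knockout dendritic cells and 6877 to 11397 CPM in wild-type dendritic cells, and miR-146b-5p alone averaged 15897 CPM in knockout and 8731 CPM in wild type.

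The cell type difference, which the choice of the arms did not use, was fitted for all 374 miRNAs with edgeR's quasi-likelihood test over all 20 libraries. Averaged over the libraries, miR-582-3p was higher in macrophages than in dendritic cells, by 2.41 ± 0.08 on the log2 scale (SE, edgeR with Benjamini-Hochberg adjustment, adjusted p = 3.9e-14). For miR-582-5p the fitted difference was 3.10 ± 0.33, given as a description because this arm passed the filter on low values almost only through macrophages, where it is high. In the same fit 39.3% of miRNAs were called higher in macrophages, so a call in this direction is common. The fitted values average over genotypes, and their errors do not hold the difference between genotypes. The miR-582-3p ratio of macrophages to dendritic cells ran from 0.944 to 3.21 in the 5 knockout pairs, and from 10.4 to 40.4 in the 5 wild-type pairs. The lowest ratio, that of the unstimulated knockout pair, had an interval of 0.887 to 1.01. For miR-582-5p the ratio ran from 0.886 to 6.07 in knockout and from 5.76 to 71.6 in the 4 wild-type pairs with reads on both sides. The gap between the genotypes in these ratios is the contrast that chose the arms. Other markers also differed between cell types, as miR-150-5p averaged 139 CPM in knockout and 121 CPM in wild-type macrophages, against 11.1 CPM in knockout and 16.9 CPM in wild-type dendritic cells. Their part was not tested. With any base accepted at read position 20, the fitted differences were 2.49 for miR-582-3p and 3.14 for miR-582-5p. The miR-582-3p ratios then ran from 0.976 to 3.35 in knockout and from 10.9 to 41.1 in wild type, and those of miR-582-5p from 0.958 to 6.57 in knockout and from 5.35 to 71.7 in wild type. The unstimulated knockout pair then had an interval of 0.920 to 1.04 for miR-582-3p.

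In dendritic cells both arms were lower with LPS than without stimulus, and miR-582-5p was also lower with each lipoprotein (given below). Knockout dendritic cells had 61.8 CPM of miR-582-3p with LPS against 233 CPM without, a ratio of 0.266 (0.243 to 0.291). Wild-type dendritic cells had 10.7 CPM with LPS against 32.0 CPM without, a ratio of 0.333 (0.259 to 0.426). After TMM scaling, which sets libraries to a common level over most miRNAs, the fitted change was -1.28 ± 0.18 on the log2 scale (SE, 2 pairs, lower in both, edgeR adjusted p = 9.9e-05). miR-582-5p had 6 reads with LPS against 63 without in knockout dendritic cells, and 0 reads against 13 in wild type. Its fitted change was -3.83 ± 0.87 (edgeR adjusted p = 0.0041), a value that depends on the wild-type count of 0 and is no bound. Without the LPS library of knockout dendritic cells that call was lost, at an adjusted p of 0.061 by edgeR, the highest over 28 alternatives (8.8e-05 to 0.061). In this contrast 10.2% of miRNAs were called lower, and miR-582-3p was the 25th lowest of 374.

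In macrophages the LPS change passed the test for neither arm. miR-582-3p had 198 CPM with LPS against 219.5 CPM without in knockout macrophages, and 431 CPM with LPS against 334 CPM without in wild-type macrophages. The genotypes moved in opposite directions, and the fitted change was 0.09 ± 0.17 (edgeR adjusted p = 0.78). Without the unstimulated wild-type macrophage library it was -0.12. miR-582-5p changed by -0.64 ± 0.58 (edgeR adjusted p = 0.49), while 18.4% of all miRNAs were called in this contrast.

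The LPS effects of the cell types differed for miR-582-3p. Dose and time of LPS are stated for dendritic cells only, so a difference in either cannot be told apart from cell type. The effect in macrophages minus that in dendritic cells was 1.37 ± 0.25 on the log2 scale (edgeR adjusted p = 0.0018), and 12.6% of miRNAs were called in this comparison. With any base accepted at read position 20 it was 1.48. For miR-582-5p the difference was 3.19 ± 1.05 and missed the threshold (edgeR adjusted p = 0.058). It passed under 5 of 8 other settings, among them DESeq2 and any base at position 20, and without 4 single libraries, and its adjusted p ran from 0.0182 to 0.153 over all 28 alternatives. The LPS effect in knockout minus that in wild type, over both cell types, was -0.37 ± 0.22 for miR-582-3p (edgeR adjusted p = 0.88) and 0.30 ± 0.90 for miR-582-5p (adjusted p = 0.99). This comparison called 0% of miRNAs with edgeR and with DESeq2, and 17 had an unadjusted p under 0.05.

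**Figure D3:**
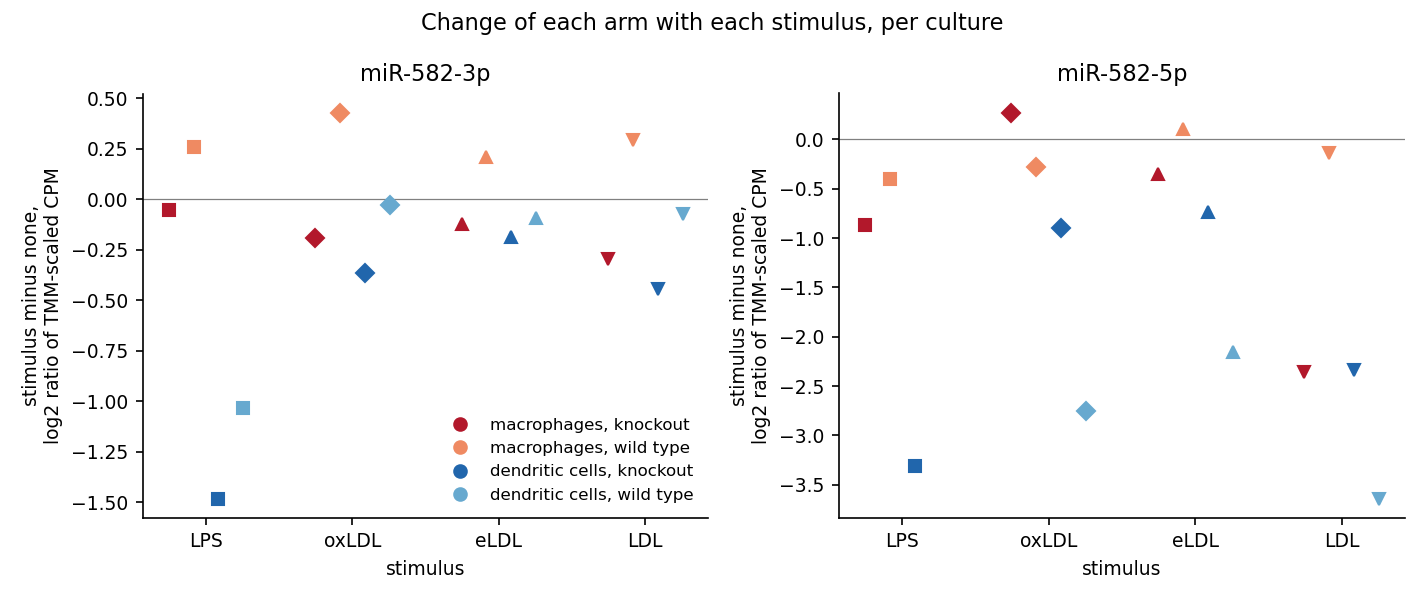
Change of miR-582-3p (left) and miR-582-5p (right) with each stimulus against no stimulus in the same culture, as the log2 ratio of TMM-scaled CPM, with 1 point per library. In dendritic cells LPS gave -1.48 in knockout and -1.03 in wild type for miR-582-3p, and macrophages stayed between -0.30 and 0.43 under every stimulus. miR-582-5p with LPS in wild-type dendritic cells had 0 reads and is not drawn.

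The change with the 3 lipoproteins, fitted as their mean, passed the test for neither arm. In dendritic cells miR-582-3p changed by -0.21 ± 0.14 on the log2 scale (edgeR adjusted p = 0.61) and miR-582-5p by -1.82 ± 0.55 (adjusted p = 0.22). No miRNA was called there (0%) with edgeR, 43 had an unadjusted p under 0.05, and DESeq2 called 7. In macrophages the changes were 0.04 ± 0.14 (edgeR adjusted p = 0.88) and -0.33 ± 0.46 (adjusted p = 0.72), and 12.3% of miRNAs were called. All 3 lipoprotein libraries of wild-type macrophages lay above the unstimulated library for miR-582-3p, at 425 to 542 CPM against 334 CPM, while those of knockout macrophages lay at 198 to 225 CPM against 219.5 CPM. In dendritic cells all 6 lipoprotein libraries lay below their unstimulated library, at 0.712, 0.812 and 0.666 times its level in knockout and 0.822, 0.874 and 0.900 times in wild type (oxLDL, eLDL, LDL). For miR-582-3p the intervals of eLDL and LDL in wild type include 1. miR-582-5p also lay below its unstimulated library in all 6, with every interval below 1. Its ratios in the same order were 0.493, 0.557 and 0.180 in knockout and 0.124, 0.209 and 0.0761 in wild type. Those of wild type rest on 2, 2 and 1 reads against 13. Its lower level in dendritic cells was thus not particular to LPS.

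Other miRNAs from introns of protein-coding genes, 162 of the 374, were called in both directions. With LPS in dendritic cells 17 were called higher and 15 lower, a median log2 change of -0.03, beside 46 and 38 of all 374 and a median of 0.00. With LPS in macrophages 16 were higher and 13 lower, with a median of 0.12 beside 0.08 over all. Between macrophages and dendritic cells 65 were higher and 56 lower, with a median of 0.14 beside 0.01 over all. miR-582-3p, itself intronic and not among the 162, was called lower in the first and higher in the last of these contrasts.

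miR-582-5p made up 2.51% of miR-582 reads in knockout macrophages (2.18% to 2.86%) and 2.39% in wild-type macrophages (2.17% to 2.62%). It made up 2.17% in knockout dendritic cells (1.82% to 2.55%) and 2.0% in wild-type dendritic cells (1.19% to 3.14%). The wild-type dendritic cell value rested on the unstimulated library, without which the share was 0.750% (0.244% to 1.74%), from 5 reads of miR-582-5p. The log2 ratio of 3p to 5p in macrophages minus that in dendritic cells averaged -0.60 ± 0.94 (SD, 9 pairs with reads of both arms, lower in 6). An exact two-sided paired permutation test gave p = 0.0977, which does not show that the ratios are equal. Without the unstimulated wild-type pair the value was -0.78, with an exact permutation p of 0.0469, and over all alternatives p ran from 0.0469 to 0.195. With any base accepted at read position 20 it was -0.55 (exact permutation p = 0.141). Single libraries varied more than cultures. The 5p share ran from 0.726% in knockout macrophages with LDL to 4.02% in knockout macrophages with oxLDL, and from 0% to 5.56% in wild-type dendritic cells.

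Between genotypes the arm ratio is a description. On the log2(CPM + 1) scale the 3p to 5p ratio in knockout minus that in wild type averaged 0.03 in macrophages and 1.17 in dendritic cells. In dendritic cells the pseudocount is close to the level of miR-582-5p, and without it the direction was not kept. Summed reads gave a 3p to 5p ratio of 45.2 in knockout and 49.1 in wild-type dendritic cells. By pair it was 30.8 in knockout and 17 in wild type without stimulus. With oxLDL, eLDL and LDL it was 44.5, 44.9 and 114 in knockout and 112.5, 71 and 201 in wild type. The 1.17 is thus set by the scale and shows no shift toward 3p in knockout. Over both cell types the difference on the log2(CPM + 1) scale was 0.60, the 4th largest size among 99 hairpins with both arms tested. Larger were those of miR-155 (5.88), the targeted hairpin, whose 5p arm was nearly lost in knockout, miR-181c (-0.85) and let-7d (0.79). As the 0.60 rests on the dendritic cell value, nothing is read from its place. The median size over the 99 was 0.14.

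The 5′ end of miR-582-3p differed between genotypes in the same direction in both cell types, unlike its level. In stimulus order, knockout macrophages had 60.0%, 58.0%, 60.3%, 61.3% and 61.8% of reads at start 48. Wild-type macrophages had 66.7%, 62.3%, 64.7%, 63.7% and 64.6%, so the groups did not overlap. Knockout dendritic cells had 62.2%, 59.2%, 62.2%, 62.2% and 52.2%, and wild-type dendritic cells had 70.1%, 60.6%, 70.2%, 74.6% and 67.7%, with ranges that overlapped. The share was lower in knockout in 10 of 10 pairs, with a mean difference of -6.61 ± 4.53 percentage points (SD). Over the summed reads of each culture, start 47 held 37.5% in knockout and 33.3% in wild-type macrophages. It held 37.4% in knockout and 28.9% in wild-type dendritic cells. The LPS pair of dendritic cells went the other way, with 37.3% in knockout (244 reads) and 39.4% in wild type (37 reads). Thus the share of summed reads with the RefSeq seed AACCUGU was higher in knockout, though not in every pair. The share with the shifted seed ACCUGUU was lower in every pair.

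Among 258 miRNAs with at least 20 reads in every library, miR-582-3p alone had a lower share at its most abundant 5′ end in all 10 pairs (0.388%), and 2 had a higher share in all. The median size of the difference was 0.446 percentage points, and that of miR-582-3p was the 2nd lowest value. The 258 were not matched to miR-582-3p in read count or in how reads divide between starts. Their sizes are therefore not directly comparable. Genotype chose the arms, so no test is given. Wild-type dendritic cells had 94 to 225 miR-582-3p reads per library, the smallest counts behind these shares. With any base accepted at read position 20 the mean difference was -6.52 percentage points. Between macrophages and dendritic cells the share differed by -1.78 ± 5.21 percentage points (SD, 10 pairs, exact two-sided paired permutation test adjusted p = 0.67 over 16 comparisons of tag composition), and by -1.10 with any base accepted at read position 20.

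**Figure D4:**
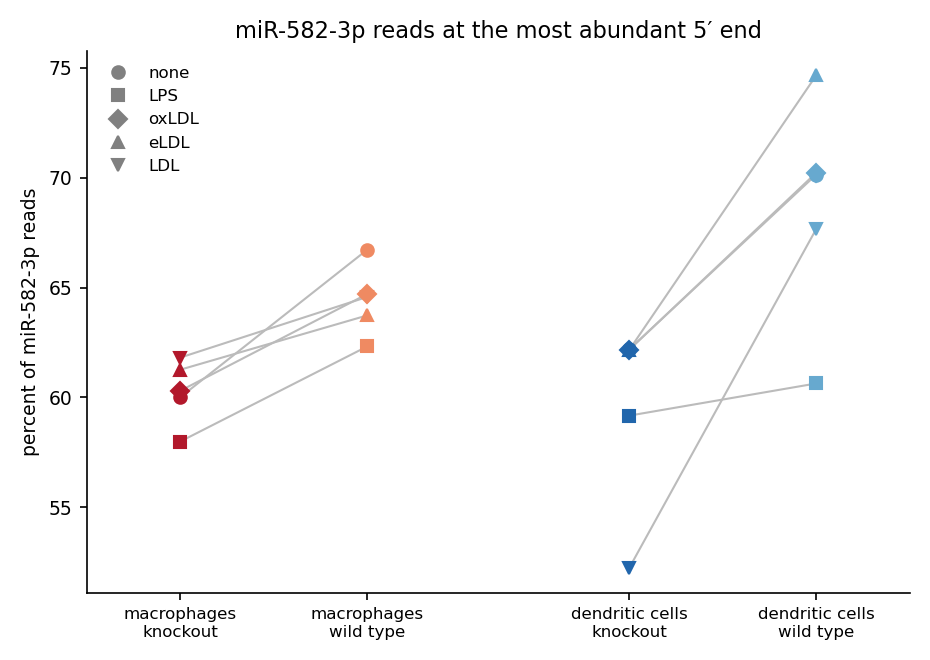
Percent of exact miR-582-3p reads that start at the most abundant 5′ end (hairpin position 48) in each library, with lines joining the knockout and wild-type library of the same cell type and stimulus. The vertical axis starts above 0. Every line ends higher in wild type, with knockout at 52.2% to 62.2% and wild type at 60.6% to 74.6%.

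The 3′ ends of miR-582-3p differed between cell types. The mean length of exact reads was longer in macrophages in 10 of 10 pairs, by 0.31 ± 0.19 nt (SD, exact two-sided paired permutation test p = 0.00195, the smallest 10 pairs allow, adjusted p = 0.0156 over 16 comparisons). Culture means were 21.9 nt in knockout and 21.9 nt in wild-type macrophages, against 21.6 nt in knockout and 21.6 nt in wild-type dendritic cells. Of the 258 miRNAs, 6.2% were longer in macrophages in all pairs and 8.53% were shorter in all. Reads ending at hairpin position 69 made up 58.2% in knockout and 62.8% in wild-type macrophages, against 38.2% in knockout and 43.8% in wild-type dendritic cells.

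Tags with 1 to 3 untemplated U after the hairpin match, additions of the kind made by terminal uridylyltransferases, were rarer in macrophages. They made up 6.67 ± 1.62% of reads in knockout macrophages and 4.32 ± 0.52% in wild-type macrophages, against 13.4 ± 3.76% in knockout and 11.4 ± 5.29% in wild-type dendritic cells (SD, n = 5 libraries each). The difference was -6.89 ± 5.04 percentage points (SD), lower in 9 of 10 pairs, with an exact two-sided paired permutation test adjusted p of 0.0208. Tails were counted for miR-582 alone, so whether other miRNAs differed likewise between these libraries was not tested. Untemplated A tails differed by -1.28 ± 1.78 percentage points (exact permutation adjusted p = 0.131). With any base accepted at read position 20, among untailed and tailed reads alike, the length difference was 0.31 nt, the U tail difference -6.92 and the A tail difference -1.28 percentage points. Between genotypes, as a description, the U tail share was higher in knockout in 8 of 10 pairs (2.18 ± 2.59 percentage points, SD). For miR-582-5p only 3 cell type pairs had the 20 reads needed on both sides, where the smallest p is 0.25.

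**Figure D5:**
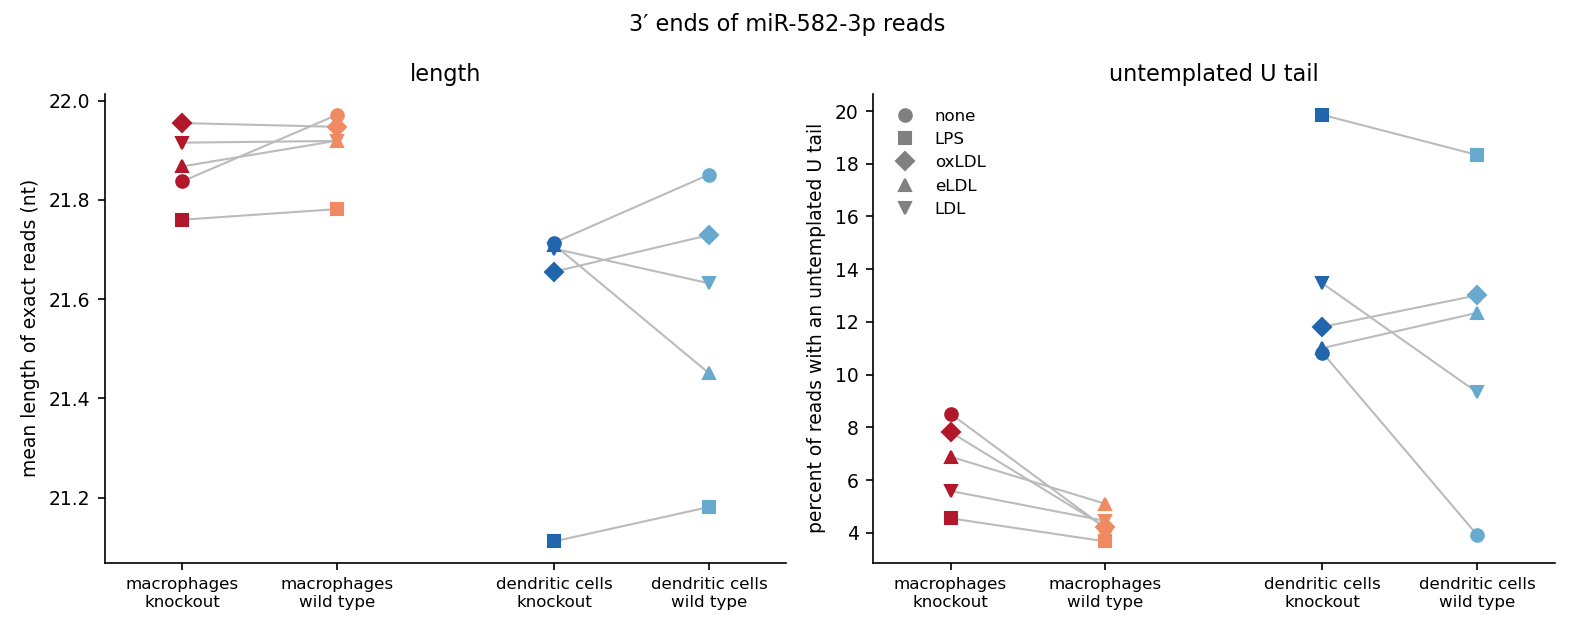
Mean length of exact miR-582-3p reads in nt (left) and percent of reads with an untemplated U tail (right) in each library, with lines joining the knockout and wild-type library of the same cell type and stimulus. The vertical axes start above 0. Macrophage libraries lie at 21.8 to 22.0 nt and 3.67% to 8.52%, and dendritic cell libraries at 21.1 to 21.9 nt and 3.91% to 19.9%.

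The LPS libraries of dendritic cells, singled out after their values were seen, had the shortest reads and the most U tails. Knockout dendritic cells with LPS had a mean length of 21.1 nt and 19.9% U tails, and their other 4 libraries had 21.7 nt and 10.8% to 13.5%. Wild-type dendritic cells with LPS had 21.2 nt and 18.3% U tails, and their other 4 libraries had 21.5 to 21.9 nt and 3.91% to 13.0%. In macrophages LPS gave the shortest mean length in both genotypes, 21.8 nt, and the lowest share of U tails, 4.55% in knockout and 3.67% in wild type.

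The miRNAs whose pattern was most like each arm were found by Pearson's r of log2(CPM + 1) over the 20 libraries after subtraction of each cell type's mean. These are descriptions, and the libraries share cultures and depth. The subtraction leaves in the genotype difference, on which the arms were chosen. miR-582-3p was most like miR-342-3p (r = 0.81), miR-582-5p (r = 0.81) and miR-146b-5p (r = 0.59). Only its other arm kept the likeness within both cell types, with r = 0.74 in macrophages and 0.87 in dendritic cells. For miR-342-3p r was -0.52 in macrophages and 0.92 in dendritic cells, and for miR-146b-5p it was -0.20 and 0.65. miR-342-3p averaged 1971 CPM in knockout and 1908 CPM in wild-type macrophages, against 3323 CPM in knockout and 2256 CPM in wild-type dendritic cells. miR-582-5p was most like miR-582-3p, miR-10a-3p (r = 0.68) and miR-324-5p (r = 0.63).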

How the data were processed

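Small RNA of 20 libraries was sequenced with Illumina's TruSeq kit from Trizol-extracted total RNA, per the labels' protocols. The deposited files list distinct sequences of 18 to 45 nt with whole-number read counts, not normalized. Per the submitters' processing notes CASAVA 1.8.2 was used, in a role they do not state, and the adapter tool is not given in the sources used here.

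Tags of 18 to 26 nt that match exactly were assigned to 1178 GENCODE M21 (GRCm38) miRNA hairpins. Arms were set by the loop that RNAfold 2.7.2 predicts, with starts within 2 nt of the most abundant 5′ end, and shared reads were divided equally. Counts of miRNAs that reach 5 CPM in 2 or more libraries were fitted with edgeR 4.0.16 (TMM, robust quasi-likelihood F test, Benjamini-Hochberg at 0.05), with culture and stimulus within cell type (8 residual degrees of freedom). The LPS difference between genotypes added stimulus within genotype (4). Standard errors are the log2 change over the square root of F. Each library is assumed to vary like the others. Matched pairs were compared by exact sign-flip permutation in scipy 1.17.1. Pipelines were tested on simulated data.

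Named besides the arms are the 3 miRNAs most like each, hairpins with a larger genotype difference in arm ratio, and markers. miR-139-5p, miR-34c-5p and the 36 macrophage-high miRNAs were chosen after their values were seen. Members and lists were chosen with earlier results of these data known. Alternatives were upper-quartile and total scaling, DESeq2 1.42.0, no filter, shared reads dropped, any tag in the arm, 18 to 30 nt, 1 read added, tailed tags added and leaving out each library or pair. Any base at position 20, TMM scaling of the genotype ratios, and the sums and shares without the unstimulated dendritic cell pair or library were added after seeing the data.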

Additional observations from a re-analysis of the deposited data

Results flagged for a closer look

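The LPS effect on miR-582-3p differed between cell types by a test of the difference itself. LPS dose and time in macrophages are not stated, so they cannot be told apart from cell type. The effect in macrophages minus that in dendritic cells was 1.37 on the log2 scale.

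Knockout was below wild type in every macrophage pair and above it in every dendritic cell pair, for both arms. In the LPS pair of dendritic cells miR-582-5p had 6 reads in knockout and 0 in wild type, so that pair has no ratio. The mean log2 ratio of knockout to wild type in macrophages minus that in dendritic cells was -3.67 for miR-582-3p and -4.43 for miR-582-5p, in which dendritic cells enter with 4 pairs. These differences were not tested, because they chose the arms.

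Reads that missed the hairpin only at read position 20 were more common in macrophage libraries, which had unread bases at that position. In macrophage libraries a median of 16.2% of miR-582-3p reads of 20 nt or longer differed from the hairpin only at read position 20, against 1.64% in dendritic cells.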

How the results depend on the processing

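Under the 28 alternatives each, miR-582-3p kept its direction and call for LPS in dendritic cells, for the LPS difference between cell types and for macrophages against dendritic cells. The mean log2 genotype ratio of miR-582-3p ran from -1.18 to -0.84 in macrophages and from 2.59 to 2.77 in dendritic cells. The LPS difference of miR-582-5p passed at 3.65 with total counts, 3.34 with DESeq2, 3.4 with no filter, 3.35 with 18 to 30 nt and 3.36 with any base at position 20, and ran from 2.89 to 5.6 without single libraries. The lipoprotein value of miR-582-3p in macrophages turned to -0.031 with upper-quartile scaling and ran from -0.13 to 0.45 without single libraries. Without single libraries, LPS on miR-582-3p in macrophages ran from -0.12 to 0.50, LPS on miR-582-5p in dendritic cells from -6.16 to -3.46, lipoproteins on miR-582-5p in macrophages from -0.72 to 0.11, and the genotype difference of its LPS effect from -0.55 to 2.67. Without single pairs the arm ratio difference ran from -0.78 to -0.39 and the cell type difference in the 5′ share of miR-582-5p from -10.2 to 9.99 percentage points. The cause of these changes was not tested.

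Total counts called 151 miRNAs for LPS in dendritic cells (26 higher, 125 lower) and 91 for the LPS difference (79 higher, 12 lower), against 84 (46 and 38) and 47 (21 and 26) with TMM. They moved the median of all miRNAs by -0.47 in the first, where miR-582-3p changed by -1.76. Upper-quartile scaling split these as 33 and 45, and 23 and 16, and split macrophages against dendritic cells as 118 and 171, against 147 and 144. Total counts split lipoproteins in macrophages as 36 and 20, against 18 and 28. Lipoproteins in dendritic cells gave 0 calls with TMM, 1 with total counts, 7 with DESeq2, 7 with no filter, 1 with any tag in the arm and 2 with any base at position 20. The genotype difference of LPS gave 4 calls with no filter. Without single libraries the counts ran from 52 to 94 for LPS in dendritic cells (52 without the LPS and 53 without the unstimulated wild-type dendritic cells), 24 to 62 for the LPS difference (24 without the unstimulated and 28 without the LPS wild-type dendritic cells, 31 without knockout macrophages with LPS), 14 to 51 for lipoproteins in macrophages (14 without unstimulated wild-type macrophages), 0 to 2 for lipoproteins in dendritic cells and 0 to 1 for the genotype difference. Depth limits miR-582-5p in dendritic cells, where 18 reads stood in wild type.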
